A study of Mus musculus with 12 samples.

Results

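The 46 interferon-stimulated antiviral genes described here were taken by gene symbol from a table of 43280 genes measured by RNA sequencing in mouse bone marrow-derived macrophages (BMDM), and all 46 were found in it. The table holds 2 biological replicates of each of 6 conditions, 12 libraries in all, from wild type (wt) and Treml4-/- mice, both on the C57BL6 background. Cells were grown from total bone marrow with M-CSF, the growth factor that drives macrophage differentiation, and were left as vehicle-treated controls (M0) or received lipopolysaccharide (LPS), a component of the outer membrane of Gram-negative bacteria, at 100 ng/ml for 8 h (M1-8 h) or 12 h (M1-12 h). The 6 conditions were therefore wt and Treml4-/- cells at M0, M1-8 h and M1-12 h. The age of the mice, the time the controls spent in vehicle and whether a replicate number stands for 1 animal over the 3 time points are not given in the sources used here, so the p-values measure the spread between these cultures.

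Type I interferons are secreted proteins that cells release when they sense a virus or bacterial LPS. They bind the receptor IFNAR, whose Janus kinases activate transcription factors that bind, together with IRF9, the interferon-stimulated response element in the promoters of its target genes. In macrophages LPS starts the loop through TLR4, TRIF, TBK1 and IRF3, which switch on Ifnb1. The target genes encode proteins that sense foreign RNA and DNA, block translation or degrade viral RNA, and trap virus particles at membranes, and others feed back on the pathway.

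Between 48008751 and 58500792 reads were counted on genes per library. The authors deposited log2 CPM (the reads of a gene scaled to the same total of reads on genes in every library), from which CPM were computed here. Differences were tested on log2(CPM + 1) with limma. Genes had to reach 1 CPM in 2 or more libraries, which 12086 did, all 46 members among them, and this scale understates the change of low genes. A gene was called differentially expressed at a Benjamini-Hochberg adjusted p under 0.05 over all genes tested and a fold change of at least 1.4. Treml4 was at 8.35 and 6.57 CPM, 4 and 3.95 CPM and 9.82 and 13.2 CPM in wt controls, at M1-8 h and at M1-12 h, and no read was counted on it in any of the 6 Treml4-/- libraries. Macrophage markers were abundant, with the summed level of 7 of them between 9712 and 27537 CPM, while 4 markers of T and NK cells summed to at most 0.0595 CPM and 3 of B cells to at most 0.309 CPM. Of 3 markers of plasmacytoid dendritic cells, strong makers of interferon, Klk1 was at 0 and Siglech at or under 0.0928 CPM in every library, while Ccr9 reached 5.25 CPM at M1-8 h, and 5 neutrophil genes summed to 33.7 to 106 CPM. The sums were 0.61 to 9.13 CPM for 4 genes of conventional dendritic cells and 0.989 to 5.23 CPM for 4 of fibroblasts. The part of these low levels in the results below was not tested.

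LPS raised nearly every member in both genotypes. At M1-8 h 45 of the 46 were called higher than at M0 in wt cells, where 16.3% of all genes tested were, and 45 of 46 in Treml4-/- cells, against a background of 17.7%. The exception was Siglec1, which was called lower in both genotypes, as were 60.6% of all genes in wt and 58.1% in Treml4-/- cells. By M1-12 h all 46 were called higher in both genotypes, against 16.2% of all genes in wt and 16.1% in Treml4-/- cells. The median log2 fold change of the members at M1-8 h was 3.78 in wt and 3.64 in Treml4-/- cells, where the median of all genes was -0.74 and -0.70. At M1-12 h it was 3.87 and 3.64, beside -0.77 and -0.74 for all genes. The members took 0.277 to 0.3% of the reads in the 4 M0 libraries, 4.58 to 5.29% at M1-8 h and 5.31 to 5.63% at M1-12 h. These are bulk samples, in which fewer cells of a type and less RNA per cell cannot be told apart.

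**Figure D1:**
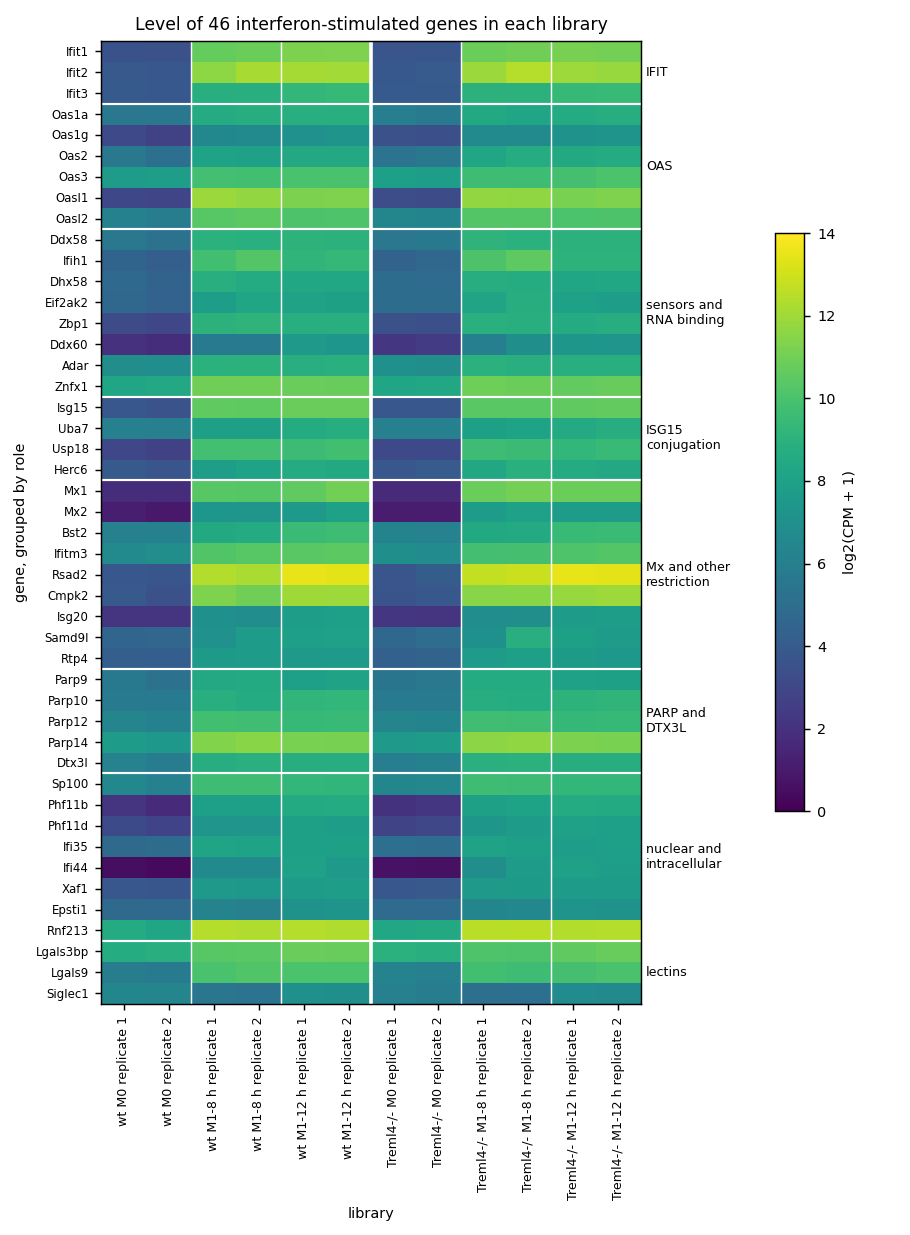
Heat map of the 46 members (rows, grouped by role) in the 12 libraries (columns), with the colour giving log2(CPM + 1). The M0 libraries of both genotypes are dark in most rows and the 8 LPS libraries bright, Rsad2 being the brightest at M1-12 h, while Siglec1 is darkest at M1-8 h.

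The scaling of the libraries bears on these values. Median of ratios scaling, which sets the middle of the genes level, brought the median of all genes to -0.02 for LPS at 8 h in wt cells and TMM scaling to -0.08, and the split of genes called higher and lower went from 1971 and 7319 to 3763 and 3675, and to 3583 and 3928. In Treml4-/- cells at 8 h the split went from 2143 and 7025 to 3860 and 3739, and to 3740 and 3899, and at 12 h from 1945 and 7204 to 3992 and 3827, and to 4066 and 3742. At 12 h in wt cells it went from 1962 and 7302 to 4046 and 3881, and to 4035 and 3888. The median of the members at 8 h in wt cells was 4.54 and 4.47 with these scalings. Set against the median of all genes, it stood 4.53 above it in CPM, 4.56 with median of ratios and 4.55 with TMM. The 45 members called higher were called higher with both scalings, and the Siglec1 call at M1-8 h was lost.

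The IFIT proteins bind viral RNA ends and hold back its translation, and their 3 genes lie on chromosome 19 between 34550694 and 34650009 (GRCm38). Ifit2 stood at 13.9 and 13.1 CPM at M0, 3118 and 4532 CPM after 8 h of LPS and 4350 and 4345 CPM after 12 h in the wt replicates, and 13.5 and 15.1, 3757 and 5564, and 4026 and 3649 CPM in the same order in the Treml4-/- replicates. Its log2 fold change at 8 h was 8.02 ± 0.19 (SE) in wt cells and 8.23 ± 0.19 in Treml4-/- cells (adjusted p = 2.2e-11 and 1.9e-11). In both genotypes the second M1-8 h replicate was the higher one, by 1.45 and 1.48 times, and in wt cells the M1-12 h libraries lay between the M1-8 h replicates. Ifit1 was at 10.4 and 9.99 CPM at M0, 1636 and 1833 CPM after 8 h of LPS and 2381 and 2525 CPM after 12 h in the wt replicates, and 12 and 12.5, 1881 and 1998, and 2206 and 2162 CPM in the same order in the Treml4-/- replicates. No LPS library of Ifit1 came near an M0 library, and the change at 8 h was 7.27 ± 0.08 in wt and 7.19 ± 0.08 in Treml4-/- cells. Ifit3 rose less, by 4.90 and 5.03. IFIT genes share long stretches of sequence with each other and with Ifit1bl1 and Ifit3b, so reads may be split between them.

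The OAS enzymes make the second messenger 2-5A, which activates RNase L, and the OASL proteins are relatives that end in ubiquitin-like domains. Oas1a, Oas1g, Oas2 and Oas3 lie on chromosome 5 between 120730333 and 120907521, and Oasl1 and Oasl2 between 114896936 and 114937915. All 6 rose, over a range of log2 fold changes at 8 h from 2.05 (Oas3) to 8.84 (Oasl1) in wt cells. Oasl1, whose product holds back translation of Irf7, had the largest change of the 46 members in wt cells at 8 h. Its values were 7.19 and 6.57 CPM at M0, 3818 and 3411 CPM after 8 h of LPS and 2452 and 2537 CPM after 12 h in the wt replicates, and 8.92 and 8.53, 3421 and 3291, and 2332 and 2512 CPM in the same order in the Treml4-/- replicates. It was at its highest at M1-8 h in both genotypes, with no overlap between the 8 h and 12 h libraries. Oasl2 was at 69.9 and 60 CPM at M0, 1312 and 1394 CPM after 8 h of LPS and 1076 and 1147 CPM after 12 h in the wt replicates, and 83.9 and 79.1, 1237 and 1222, and 1041 and 1074 CPM in the same order in the Treml4-/- replicates. Oasl2 showed the same order of time points, at a change of 4.36 ± 0.09 in wt and 3.90 ± 0.09 in Treml4-/- cells at 8 h. Oas1a and Oas1g belong to a cluster of near copies, and their values are uncertain for that reason.

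Among the 8 sensors and RNA-binding effectors, Zbp1, a sensor of Z-form nucleic acid that can trigger necroptosis, and Ifih1, which encodes the sensor MDA5 of long double-stranded RNA, changed most. Zbp1 was at 8.5 and 7.04 CPM at M0, 518 and 544 CPM after 8 h of LPS and 430.2 and 451 CPM after 12 h in the wt replicates, and 9.94 and 9.71, 471 and 461, and 396 and 428 CPM in the same order in the Treml4-/- replicates. It rose by 5.93 ± 0.09 in wt and 5.43 ± 0.09 in Treml4-/- cells at 8 h. Ifih1 was at 22 and 17.8 CPM at M0, 858 and 1212 CPM after 8 h of LPS and 564 and 641 CPM after 12 h in the wt replicates, and 20.7 and 25, 1076 and 1464, and 530.0 and 529 CPM in the same order in the Treml4-/- replicates. At M1-8 h its replicates were 1.41 times apart in wt cells, and both were above every M1-12 h library. The change at 8 h was 5.62 ± 0.18 in wt and 5.72 ± 0.18 in Treml4-/- cells. The related helicases Ddx58, which encodes RIG-I, and Dhx58, which encodes LGP2, rose by 3.50 and 4.09 in wt cells. The least change in this group was 2.09 for Adar, the RNA editing enzyme, which was already at 118 and 117 CPM in the wt M0 replicates. Eif2ak2 encodes PKR, the kinase that stops translation on double-stranded RNA, and it rose by 3.49 in wt cells, Ddx60 by 3.85 and Znfx1 by 2.63.

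ISG15 is a ubiquitin-like protein that Uba7 activates, Herc6 attaches to targets in mice and Usp18 removes, Usp18 being also an inhibitor of IFNAR signalling. All 4 genes rose. Usp18 was at 6.94 and 5.9 CPM at M0, 908 and 905 CPM after 8 h of LPS and 761 and 869.8 CPM after 12 h in the wt replicates, and 7.64 and 7.61, 804 and 752, and 626 and 684 CPM in the same order in the Treml4-/- replicates. Its change at 8 h was 6.94 ± 0.10 in wt and 6.50 ± 0.10 in Treml4-/- cells. Isg15 was at 13.1 and 10.8 CPM at M0, 1560 and 1477 CPM after 8 h of LPS and 1806 and 1757 CPM after 12 h in the wt replicates, and 13 and 13.1, 1369 and 1370, and 1551 and 1613 CPM in the same order in the Treml4-/- replicates. Isg15 changed by 6.88 ± 0.09 and 6.61 ± 0.09 at 8 h. Its replicates lay close together in every condition but wt M0, where the second was 0.819 times the first. Per kilobase of exon, it was the most abundant member at M1-8 h, at 2009 CPM per kb in wt and 1811 in Treml4-/- cells, followed by Ifitm3 at 1839 in wt. In Treml4-/- cells Rsad2 was second at 1623 CPM per kb, and at M1-12 h Rsad2 led in both genotypes, at 2643 and 2584 CPM per kb. The activating enzyme Uba7 changed least of the 4, by 1.86 in wt cells at 8 h.

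Of the 9 restriction factors, Rsad2, which encodes viperin, an enzyme that makes a chain-terminating nucleotide, and Mx1, a GTPase that blocks incoming viral nucleocapsids, changed most. Rsad2 was at 13.2 and 12.3 CPM at M0, 5324 and 4841 CPM after 8 h of LPS and 11964 and 10949 CPM after 12 h in the wt replicates, and 12.5 and 16.3, 6627 and 7448, and 11354 and 11054 CPM in the same order in the Treml4-/- replicates. It was the member with most reads at M1-12 h in all 4 libraries, where it alone took 1.09 to 1.2% of all reads on genes. Its change was 8.53 ± 0.12 at 8 h and 9.70 ± 0.12 at 12 h in wt cells, and 8.84 ± 0.12 and 9.52 ± 0.12 in Treml4-/- cells. Many laboratory strains carry a defective Mx1 allele. Mx1 was at 2.53 and 2.62 CPM at M0, 1332 and 1248 CPM after 8 h of LPS and 1546 and 2077 CPM after 12 h in the wt replicates, and 2.12 and 2.19, 1756 and 2163, and 1832 and 1816 CPM in the same order in the Treml4-/- replicates. At M1-8 h both Treml4-/- replicates of Mx1 were above both wt replicates, and at M1-12 h the genotypes overlapped. Mx1 changed by 8.50 ± 0.13 in wt and 9.27 ± 0.13 in Treml4-/- cells at 8 h. Cmpk2, the nucleotide kinase gene that lies beside Rsad2 on chromosome 12 from 26469204, rose by 7.45 and 7.77. The other members of the group rose by between 2.43 for Bst2, which encodes tetherin, and 6.27 for Mx2 in wt cells. Mx1 and Mx2 lie side by side on chromosome 16 and are similar in sequence, as are Ifitm3 and its neighbours, so reads may be shared.

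The PARP group adds ADP-ribose to proteins, with DTX3L the partner ubiquitin ligase of PARP9, and it had the narrowest range of changes of the larger groups, from 2.73 for Dtx3l to 3.84 for Parp14 in wt cells at 8 h. Parp14 was at 209 and 176 CPM at M0, 2560 and 2958 CPM after 8 h of LPS and 2360 and 2280 CPM after 12 h in the wt replicates, and 186 and 201, 3087 and 3237, and 2427 and 2286 CPM in the same order in the Treml4-/- replicates. Parp12 was at 81.1 and 69.3 CPM at M0, 869 and 834 CPM after 8 h of LPS and 666 and 689.8 CPM after 12 h in the wt replicates, and 80.9 and 78.8, 850.4 and 810.4, and 651 and 661 CPM in the same order in the Treml4-/- replicates. Both were highest at M1-8 h in both genotypes, and Parp12 rose by 3.49 ± 0.09 in wt and 3.36 ± 0.09 in Treml4-/- cells. Parp9, Dtx3l and Parp14 lie together on chromosome 16 between 35832874 and 35972605. The starts of Parp9 and Dtx3l overlap on opposite strands, and whether strand was used in counting is not given in the sources used here.

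The 8 nuclear and other intracellular members ranged from 1.36 (Epsti1) to 6.26 (Ifi44) in wt cells at 8 h. Ifi44, a GTP-binding protein gene, was at 0.424 and 0.275 CPM at M0, 103 and 101 CPM after 8 h of LPS and 260.1 and 186 CPM after 12 h in the wt replicates, and 0.611 and 0.542, 118 and 201, and 255 and 227 CPM in the same order in the Treml4-/- replicates. It was under 1 CPM in all 4 M0 libraries, so its change of 6.26 ± 0.22 is understated on this scale. Phf11b was at 3.45 and 2.32 CPM at M0, 234 and 248 CPM after 8 h of LPS and 375 and 387 CPM after 12 h in the wt replicates, and 3.18 and 3.57, 251 and 279.7, and 384 and 378 CPM in the same order in the Treml4-/- replicates. Phf11b has near copies, among them the member Phf11d, and its reads are uncertain for that reason. Its level kept the order M0, M1-8 h, M1-12 h in both genotypes without overlap. Rnf213, which encodes a very large ubiquitin ligase, had the most reads of any member in the wt M1-8 h libraries, at 5482 and 5190 CPM. The nuclear body gene Sp100 rose by 3.33, Xaf1 by 3.73 and Ifi35 by 3.25 in wt cells at 8 h.

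The 3 lectin and lectin-binding genes differed among themselves. Lgals9 encodes galectin-9 and was at 60.6 and 55.8 CPM at M0, 1025 and 1160 CPM after 8 h of LPS and 1049 and 1052 CPM after 12 h in the wt replicates, and 74.5 and 66.4, 863 and 801, and 926 and 1012 CPM in the same order in the Treml4-/- replicates. It rose by 4.20 ± 0.09 in wt and 3.54 ± 0.09 in Treml4-/- cells at 8 h. Lgals3bp, a secreted galectin ligand, was at 403 and 445 CPM at M0, 1310 and 1377 CPM after 8 h of LPS and 1793 and 1735 CPM after 12 h in the wt replicates, and 483 and 441, 1132 and 1096, and 1558 and 1711 CPM in the same order in the Treml4-/- replicates. It had the most reads of all members at M0 in every library and rose by 1.66 ± 0.09 and 1.27 ± 0.09. Siglec1 encodes sialoadhesin, a macrophage receptor for sialic acid that can capture enveloped virus. Its values were 85.8 and 80.4 CPM at M0, 44.9 and 38.7 CPM after 8 h of LPS and 129 and 123 CPM after 12 h in the wt replicates, and 67.9 and 57.8, 35 and 33.8, and 106 and 98.4 CPM in the same order in the Treml4-/- replicates. The M1-8 h libraries were the lowest and the M1-12 h libraries the highest in each genotype, with no overlap. Its log2 fold change was -0.98 ± 0.10 at 8 h and 0.59 ± 0.10 at 12 h in wt cells (adjusted p = 3.5e-06 and 0.0002), and -0.85 ± 0.10 and 0.70 ± 0.10 in Treml4-/- cells. With median of ratios scaling the value at 8 h was -0.13 in wt and -0.07 in Treml4-/- cells (adjusted p = 0.268 and 0.577), and with TMM -0.20 and -0.10 (0.0856 and 0.354), while the value at 12 h was 1.49 in wt with both.

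**Figure D2:**
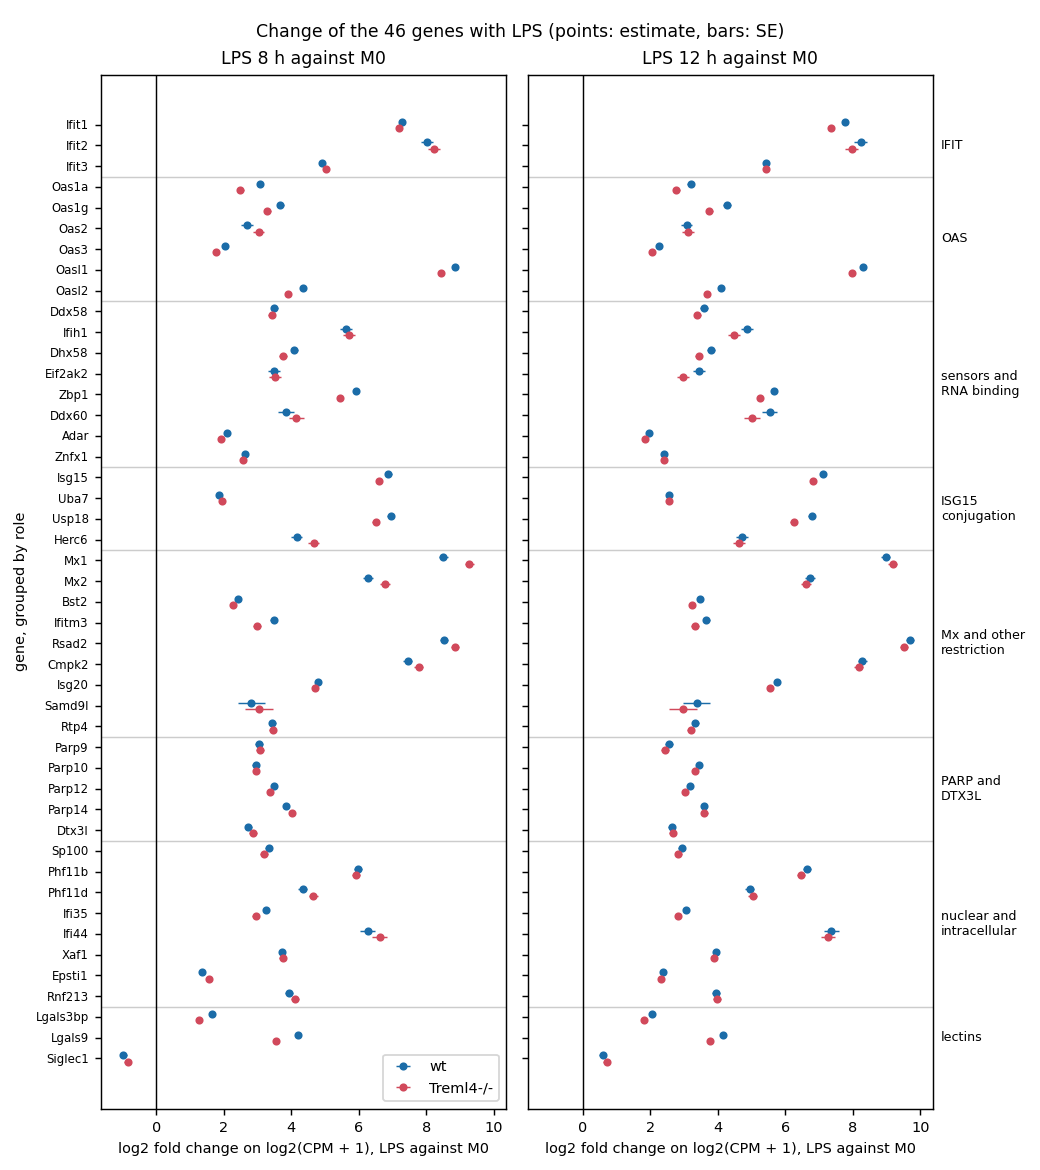
Log2 fold change on log2(CPM + 1) of each member (rows, grouped by role) with LPS at 8 h (left) and 12 h (right) against M0, wt in blue and Treml4-/- in red, bars giving the SE from limma with 2 replicates per condition. Points run from -0.98 (Siglec1, 8 h, wt) to 9.70 (Rsad2, 12 h, wt), and Siglec1 at 8 h is the member left of 0.

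Promoter sequence is shown for 4 of the members described above, because the interferon-stimulated response element is a defined motif. RefSeq windows of 300 bases, from 250 before to 50 after a transcription start (GRCm38.p6), were matched by symbol for 35 of the 46 members. The letters GAAANNGAAA, the core of the interferon-stimulated response element, were found on either strand in a window of 15 of these 35 (42.9%), and in 1079 of all 27025 genes with a window (3.99%). Of the 4, Isg15 held 3 overlapping matches at -78, -72 and -66 from the start, Rsad2 1 match at -120 on the opposite strand and Ifih1 1 match at 33 after the start, whereas these letters are not in the Oasl1 window. Promoters were chosen by role group, from the IFIT to the PARP group. In each, the member with a window and the largest log2 fold change at 8 h in wt cells was taken. Ifit2 and Parp12 were chosen by this rule too, and their windows, which are not printed, held no match to GAAANNGAAA. The lines give the 250 bases before the start of Isg15 (chr4:156200819-156201068, minus strand), Rsad2 (chr12:26456453-26456702, minus strand) and Oasl1 (chr5:114922990-114923239, plus strand), and bases 21 to 50 after that of Ifih1 (chr2:62646206-62646235, minus strand), 5′ to 3′ on the strand of the gene, with the matches in capitals.
Isg15: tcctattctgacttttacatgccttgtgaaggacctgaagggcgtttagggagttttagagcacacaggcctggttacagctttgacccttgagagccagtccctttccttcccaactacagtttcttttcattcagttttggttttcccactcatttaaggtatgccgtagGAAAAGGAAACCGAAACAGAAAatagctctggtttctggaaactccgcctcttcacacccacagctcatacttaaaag
Rsad2: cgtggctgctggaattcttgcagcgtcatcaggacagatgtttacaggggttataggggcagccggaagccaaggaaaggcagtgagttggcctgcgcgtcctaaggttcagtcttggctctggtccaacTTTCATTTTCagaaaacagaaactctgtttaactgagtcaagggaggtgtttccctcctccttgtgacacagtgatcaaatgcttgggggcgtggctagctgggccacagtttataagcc
Oasl1: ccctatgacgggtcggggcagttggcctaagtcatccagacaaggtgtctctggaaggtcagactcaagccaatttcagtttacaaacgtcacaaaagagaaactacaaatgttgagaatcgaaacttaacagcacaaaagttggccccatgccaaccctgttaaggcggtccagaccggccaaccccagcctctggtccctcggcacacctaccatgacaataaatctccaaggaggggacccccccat
Ifih1: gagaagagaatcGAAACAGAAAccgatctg

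The run of capitals in Isg15 holds its 3 matches end over end. Other members with matches were Ifit1, Ifit3, Oas1a, Oas1g, Oas3, Ddx58, Ddx60, Eif2ak2, Ifitm3, Bst2, Phf11b and Lgals9. The letters TTCNNNGAA of another motif, the gamma-activated site, were also searched. They were found for 8 of the 35 members with a window (22.9%), Ifit2 among them, and for 9.55% of all genes with a window. A match is a description of the sequence and not a measured binding site. The members were listed as interferon-stimulated genes, so a larger share with GAAANNGAAA may follow from the choice of list. Which factors act on these promoters was not tested.

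From M1-8 h to M1-12 h the members parted. In wt cells 16 were called higher at 12 h, where 14.0% of all genes were, and 3 lower, against 17.6%. In Treml4-/- cells 10 were called higher and 3 lower, where the backgrounds were 12.9% and 19.4%. Over all genes the split of 1696 higher and 2122 lower in wt cells went to 1959 and 2007 with median of ratios and 2241 and 1722 with TMM, and that of 1554 and 2349 in Treml4-/- cells to 1878 and 2121, and 2141 and 1872. For the members the counts with TMM scaling were 20 and 1 in wt, and 15 and 2 without Treml4, and with median of ratios 18 and 2, and 11 and 3. The median change was 0.22 in wt and 0.03 in Treml4-/- cells, beside -0.04 and -0.08 for all genes. In both genotypes 9 members were called higher, namely Bst2, Ddx60, Epsti1, Ifi44, Isg20, Phf11b, Rsad2, Siglec1 and Uba7, and 2 were called lower, Ifih1 and Parp9. Of the others, 10 were called in 1 genotype alone and 25 in neither. The shares of all genes with these patterns are not given here, so these counts have no background beside them.

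Siglec1 changed most after Ddx60 in wt cells, by 1.57 ± 0.10 in wt and 1.54 ± 0.10 in Treml4-/- cells (adjusted p = 1.6e-06 and 1.8e-06). Rsad2 went from 5324 and 4841 to 11964 and 10949 CPM in wt cells, a change of 1.17 ± 0.12, and its change in Treml4-/- cells was 0.67 ± 0.12. Bst2 rose by 1.05 ± 0.08 and 0.96 ± 0.08, and Isg20, an exonuclease that degrades RNA, by 0.95 ± 0.09 and 0.84 ± 0.09. Epsti1 was at 27.4 and 26.6 CPM at M0, 74.7 and 67.4 CPM after 8 h of LPS and 141 and 148 CPM after 12 h in the wt replicates, and 29 and 28.6, 84.8 and 90.1, and 148 and 144 CPM in the same order in the Treml4-/- replicates. Its libraries did not overlap between time points, and it rose by 1.01 ± 0.08 and 0.73 ± 0.08. Ddx60 rose from 51.9 and 55.6 to 187 and 164 CPM in wt cells (1.68 ± 0.23). In Treml4-/- cells it went from 64.9 and 125 to 169.8 and 158 CPM (0.86 ± 0.23), the M1-8 h replicates being 1.93 times apart. Ifih1 fell by 0.76 in wt and by 1.24 in Treml4-/- cells, and Parp9 by 0.51 and 0.63. In wt cells the value of Parp9 was -0.46 with median of ratios scaling and -0.39 with TMM, both under the minimum fold, as was that of Oasl1 with TMM (-0.42).

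Called higher in wt cells alone were Cmpk2, Herc6, Ifit1, Ifit3, Oas1g, Parp10 and Phf11d, and in Treml4-/- cells alone Lgals3bp. Called lower were Oasl1 in wt cells alone and Eif2ak2 in Treml4-/- cells alone. The Eif2ak2 call was lost with TMM scaling (-0.42, adjusted p = 0.082) and with no filter (-0.55, adjusted p = 0.083). That of Ifi44 in Treml4-/- cells was lost with no filter, with only the libraries compared and with the deposited log2 values (0.64 to 0.65, adjusted p between 0.0579 and 0.0833). The difference between genotypes in this change was tested for every gene, in a comparison added after the data were seen, and called none of the 46 members with limma or voom, and 0% of all genes with limma. At an unadjusted p under 0.05 it was larger in wt cells for 7 members and smaller for 0, where 1.94% and 1.27% of all genes were.

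Single libraries decided part of these calls. Without wt M1-8 h replicate 1 the calls of Ifit1 (0.42), Herc6 (0.42) and Oasl1 (-0.45) were lost in wt cells, and without wt M1-8 h replicate 2 those of Ifih1 (-0.51), Parp9 (-0.44) and Parp10 (0.41). Leaving out wt M1-12 h replicate 1 ended the calls of Herc6 (0.51) and Parp9 (-0.42), and leaving out wt M1-12 h replicate 2 those of Ifit1 (0.46), Ifit3 (0.46), Herc6 (0.59) and Parp10 (0.46). In Treml4-/- cells Ddx60 (0.39), Ifi44 (0.26) and Phf11b (0.44) were no longer called without M1-8 h replicate 1, Eif2ak2 (-0.27) without M1-8 h replicate 2, Ddx60 (0.80), Eif2ak2 (-0.64) and Ifi44 (0.56) without M1-12 h replicate 1, and Eif2ak2 (-0.46), Ifi44 (0.73) and Lgals3bp (0.48) without M1-12 h replicate 2. The values in brackets are the log2 fold changes with the library left out. Rsad2, Bst2, Isg20, Epsti1, Uba7 and Siglec1 were called higher in both genotypes whichever library was left out.

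**Figure D3:**
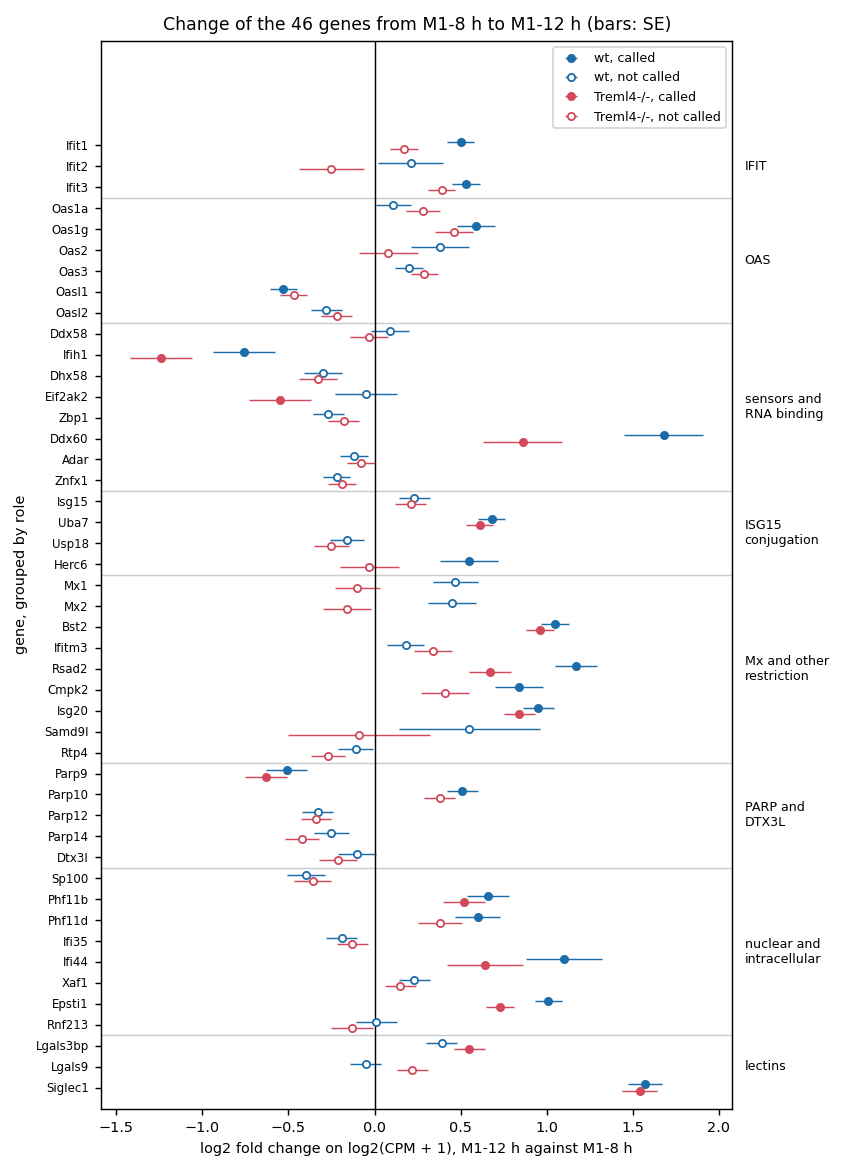
Log2 fold change on log2(CPM + 1) of each member from M1-8 h to M1-12 h, wt in blue and Treml4-/- in red, bars giving the SE and filled points the calls. Siglec1 and Ddx60 lie farthest to the right, at 1.57 and 1.68 in wt cells, and Ifih1 farthest to the left, at -1.24 in Treml4-/- cells.

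The comparison of genotypes asks whether Treml4, a receptor of myeloid cells, bears on these genes before and after LPS. With all 12 libraries and no crossed replicate block, no member was called at any of the 3 time points, by limma or by voom. Of all genes, limma called 0.0993%, 0.0910% and 0.132%. The lowest adjusted p among the members was 0.42 in controls, 0.122 after 8 h of LPS and 0.387 after 12 h. At M1-8 h the paper, with DESeq2 and the same thresholds, reports more genes between genotypes than limma called here. A member that was not called here may therefore still differ. Fold changes are given as wt relative to Treml4-/-. At an unadjusted p under 0.05, 1 member was higher and 9 were lower in wt cells at M0, where 1.09% and 2.26% of all genes were. With 8 h of LPS the counts were 6 higher and 11 lower, against 5.77% and 15.2%. With 12 h they were 3 and 0, against 2.08% and 5.47%. Median of ratios scaling turned the counts at M1-8 h to 12 higher and 7 lower, where 12.5% and 10.3% of all genes were, and TMM to 12 and 8, against 10.9% and 11.4%. At M1-12 h they became 8 and 0 with median of ratios, against 4.49% and 3.15%, and 7 and 0 with TMM, against 3.86% and 3.55%.

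The libraries themselves gave the following picture. At M0 both wt replicates were below both Treml4-/- replicates for 21 of the 46 members and above them for 3, where this held for 18.0% and 10.8% of all genes. At M1-8 h they were below for 20 and above for 13, against 33.9% and 18.0%. With median of ratios scaling the balance at M1-8 h was the other way, 12 below and 20 above, as it was over all genes (23.0% and 29.7%), and with TMM it was also 12 and 20 (24.8% and 27.5%). The 21 members below at M0 became 15 with either scaling, against 14.3% and 13.3% of all genes. At M1-12 h they were above for 20 members and below for 1, Oas2, while over all genes 12.3% were above and 30.8% below. With median of ratios scaling the wt replicates at M1-12 h were above for 32 members and below for 0, against 24.8% and 16.7% of all genes, and with TMM above for 30 and below for 0, against 21.9% and 19.3%. The summed macrophage markers also lay apart at M0, at 22962 to 27537 CPM in wt and 20468 to 20694 CPM in Treml4-/- cells. At M1-8 h they were at 11454 to 12895 and 9951 to 10570 CPM, and at M1-12 h they overlapped, at 10020 to 10593 and 9712 to 10070 CPM. Lyz2 was the largest part of each sum, at 12853 and 15208 CPM in wt and 10416 and 10466 CPM in Treml4-/- cells at M0. At M1-8 h both wt replicates were above both Treml4-/- replicates for Adgre1, Cd68, Lyz2 and Fcgr1 and below them for Itgam and Mertk. The part of these markers in the differences between genotypes was not tested.

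By role, all 6 OAS genes had a log2 fold change under 0 at M0, where 60.4% of all genes were not above 0. For 5 of them the wt replicates were below both Treml4-/- replicates, as for 18.0% of all genes. Their median was -0.30, which was -0.26 with median of ratios scaling and -0.25 with TMM. Over all genes, the share not above 0 at M0 was 66.7% without wt M0 replicate 1 and 44.5% without wt M0 replicate 2. Oas1g had the lowest p of the members there. It was at 7.48 and 5.7 CPM at M0, 91.7 and 99.8 CPM after 8 h of LPS and 137 and 152 CPM after 12 h in the wt replicates, and 9.96 and 9.52, 104 and 103, and 138 and 149 CPM in the same order in the Treml4-/- replicates. Both wt M0 replicates were below both Treml4-/- M0 replicates, the LPS libraries of the genotypes overlapped at M1-12 h, and the difference at M0 was -0.51 ± 0.11 (adjusted p = 0.42). Leaving out wt M0 replicate 1 made it a call, at -0.68 (adjusted p = 0.0143), in a fit that called 1.69% of all genes lower in wt cells, with the remaining wt M0 library assumed to vary like the other conditions.

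Of the 46 members 8 had wt replicates below the Treml4-/- replicates at M0 and above them at M1-8 h, namely Oas1a, Oas3, Oasl2, Zbp1, Adar, Usp18, Ifi35 and Lgals9, a pattern looked for after the values were seen and held by 2.16% of all genes. With either other scaling it held for 7 members, Oas1a, Oasl1, Oasl2, Dhx58, Zbp1, Usp18 and Lgals9, against 1.66% of all genes with median of ratios and 1.50% with TMM. For Lgals9 the difference between genotypes was -0.27 ± 0.09 at M0 and 0.39 ± 0.09 at M1-8 h, so its LPS response at 8 h differed by 0.66 ± 0.13 between them (adjusted p = 0.729). For Usp18 the values were -0.22 ± 0.10, 0.22 ± 0.10 and 0.44 ± 0.14. Over all members, the test of the difference in LPS response called none at 8 h or at 12 h with limma or voom, where 0.00827% of all genes were called at each time. At an unadjusted p under 0.05 the response at 8 h was larger in wt cells for 11 members and smaller for 2, against 2.39% and 4.28% of all genes, and at 12 h larger for 10 and smaller for 0, against 1.44% and 2.38%. The M0 libraries enter both of these comparisons.

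The largest values on the lower side of wt cells at M1-8 h were those of Ddx60 (-0.73 ± 0.23), Mx1 (-0.60 ± 0.13), Herc6 (-0.59 ± 0.17), Ifi44 (-0.58 ± 0.22), Mx2 (-0.55 ± 0.14), Samd9l (-0.49 ± 0.41) and Rsad2 (-0.47 ± 0.12), with adjusted p between 0.122 and 0.496. In the second Treml4-/- M1-8 h replicate 6 members stood at least 1.4-fold above the first and 0 stood that far below it, where 5.93% of all genes stood above. They were Samd9l at 131 and 437 CPM, Ddx60 at 64.9 and 125 CPM, Ifi44 at 118 and 201 CPM, Ifit2, Herc6 and Eif2ak2. In wt cells at M1-8 h the same held for Samd9l, Ifit2 and Ifih1. Samd9l, an interferon-induced brake on translation and growth, had the widest spread of all members at M1-8 h, 3.33 times between the Treml4-/- replicates, and was at 136 and 212 CPM in the wt replicates. Without Treml4-/- M1-8 h replicate 1 the genotype difference at M1-8 h was called for 6 members, all lower in wt cells, namely Ddx60 (-1.20), Samd9l (-1.36), Ifi44 (-0.97), Herc6 (-0.86), Mx1 (-0.75) and Mx2 (-0.68). The same fit called 4.76% of all genes lower and 0.199% higher, with the remaining library assumed to vary like the other conditions. Without the other replicate none was called, and Samd9l was at 0.37. A replicate block within each time point, with the numbers crossed at M0 and chosen after seeing the data, called Ddx60, Herc6, Mx1 and Mx2 lower at M1-8 h (adjusted p between 0.0253 and 0.0426 in limma), where it called 3.22% of all genes lower. What sets these libraries apart was not tested.

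Ifitm3, which keeps viruses from fusing in endosomes, was in CPM the one restriction factor whose wt replicates were above both Treml4-/- replicates at M1-8 h, and with the other scalings Bst2 and Isg20 were too. It was at 101 and 121 CPM at M0, 1188 and 1306 CPM after 8 h of LPS and 1373 and 1443 CPM after 12 h in the wt replicates, and 126 and 106, 907 and 939, and 1119 and 1218 CPM in the same order in the Treml4-/- replicates. The same held at M1-12 h, and the genotypes overlapped at M0. The differences were 0.43 ± 0.11 and 0.27 ± 0.11 (adjusted p = 0.143 and 0.614).

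**Figure D4:**
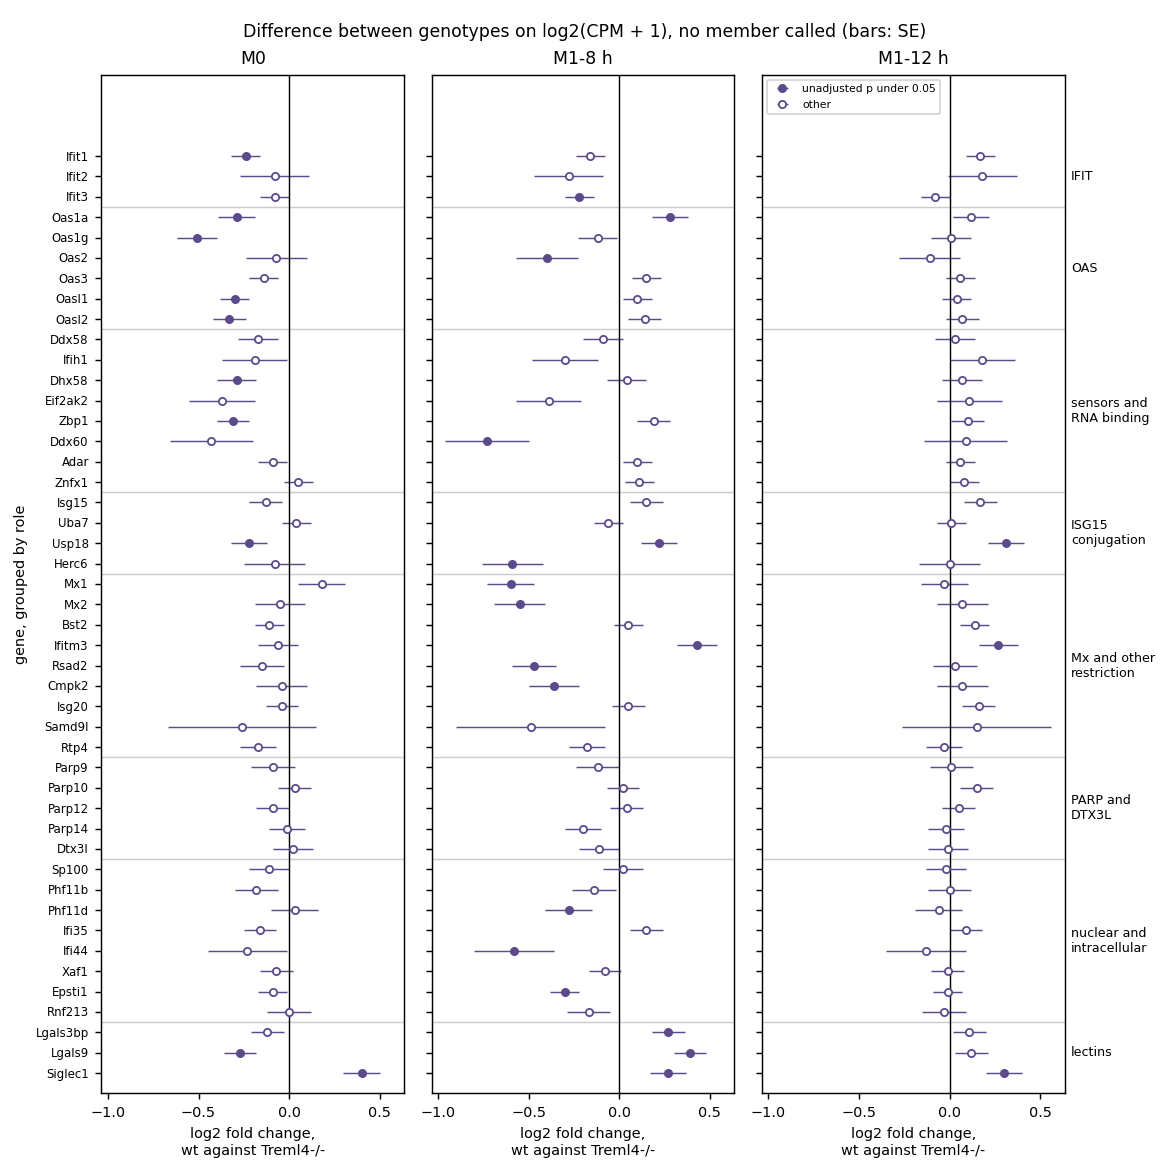
Log2 fold change on log2(CPM + 1) of wt against Treml4-/- cells for each member in controls and at both LPS times, bars giving the SE and filled points an unadjusted p under 0.05. Of the 46 points 8 lie right of 0 at M0 (9 with median of ratios scaling and 10 with TMM) and 32 at M1-12 h (44 and 43), those at M1-8 h spread from -0.73 (Ddx60) to 0.43 (Ifitm3), and no member was called.

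Averaged over the 3 time points, no member met both thresholds with limma or voom, where 0.414% of all genes did. Over all genes 10 were called higher and 40 lower in wt cells, and 21 and 25 with median of ratios scaling and 16 and 23 with TMM. Siglec1 alone had an adjusted p under 0.05, at 0.32 ± 0.06 (adjusted p = 0.0405), and its fold of 1.25 was under the required 1.4. It was also the member whose wt replicates were above both Treml4-/- replicates at all 3 time points, as 1.31% of all genes were, and this held with both other scalings, where its mean difference was 0.39 and 0.38 (adjusted p = 0.0182 and 0.0173). The 5 members with the lowest p were Siglec1, Ifitm3 (0.21 ± 0.06), Oas1g (-0.21 ± 0.07), Rsad2 (-0.20 ± 0.07) and Epsti1 (-0.13 ± 0.05). At an unadjusted p under 0.05, 2 members were higher and 9 lower in wt cells, against 4.76% and 15.4% of all genes, and the counts turned to 9 and 0 with median of ratios scaling, against 12.6% and 7.67%, and 9 and 1 with TMM, against 11.1% and 8.42%. Without Treml4-/- M1-8 h replicate 1, Ddx60 (-0.51) and Samd9l (-0.49) were called lower in wt cells, as were 0.778% of all genes.

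**Figure D5:**
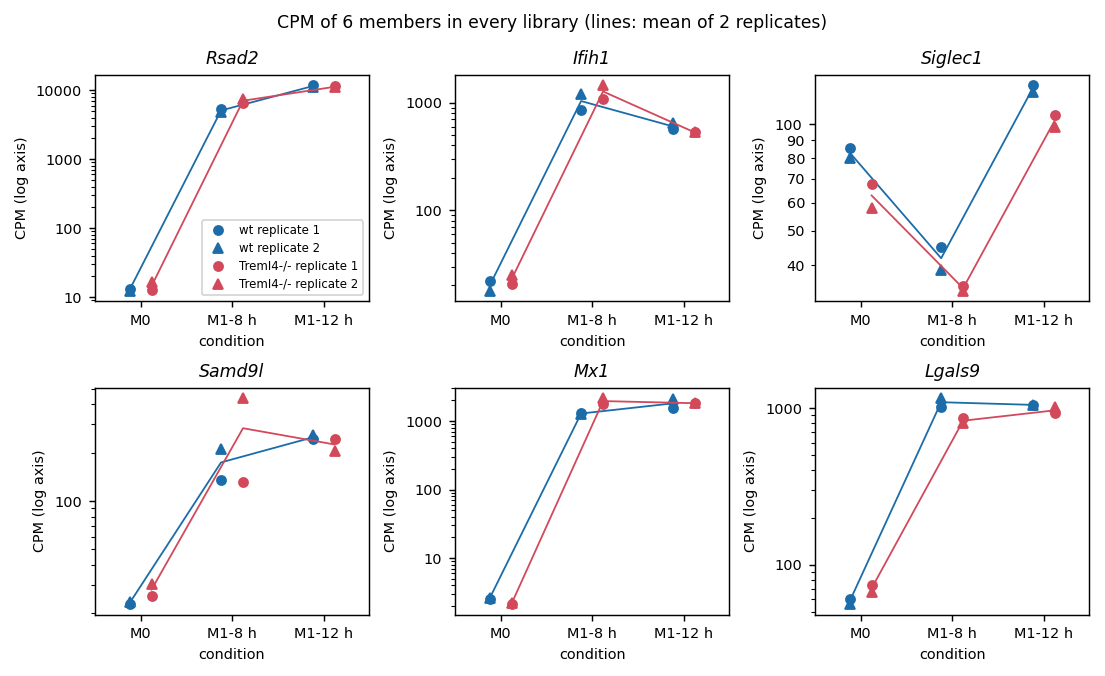
CPM on a log axis of 6 members in every library of the 3 time points, wt in blue and Treml4-/- in red, circles and triangles giving replicates 1 and 2 and lines the mean of both. Rsad2 climbs to 11964 CPM, Ifih1 peaks at M1-8 h, Siglec1 dips at M1-8 h with the wt points above the Treml4-/- points, and Samd9l at M1-8 h has Treml4-/- replicates of 131 and 437 CPM.

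The pathway that acts on these genes was followed in a list of 27 ligands, receptors, kinases, transcription factors, relay proteins and inhibitors, of which 23 passed the filter. In wt cells 12 of the 23 were called higher and 3 lower at 8 h, against 16.3% and 60.6% of all genes, and in Treml4-/- cells 11 and 3, against 17.7% and 58.1%. With either other scaling 18 were called higher and 1 lower in wt cells, where 31.1% and 30.4% of all genes were with median of ratios and 29.6% and 32.5% with TMM. The counts without Treml4 were then 20 and 1, against 31.9% and 30.9%, and 30.9% and 32.3%. Ifnb1, which encodes interferon beta, was at 0.0193 and 0 CPM at M0, 8.98 and 14.9 CPM after 8 h of LPS and 0.94 and 1.79 CPM after 12 h in the wt replicates, and 0.0204 and 0, 8.03 and 7.7, and 1.04 and 1.11 CPM in the same order in the Treml4-/- replicates. It was close to 0 at M0, highest at M1-8 h and lower again at M1-12 h, and it fell from 8 h to 12 h by 2.44 in wt and 2.09 in Treml4-/- cells. Its difference between genotypes at M1-8 h was 0.51 ± 0.21 (adjusted p = 0.21). No read was counted on Ifna1, Ifna2, Ifna4 or Ifna5 in any library.

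Of the transcription factors, Irf7, the factor that amplifies interferon production, rose by 5.56 ± 0.09, Stat2 by 3.79 ± 0.08 and Irf1 by 3.55 ± 0.10 in wt cells at 8 h. Irf9 was not called at 8 h (0.31 ± 0.07) but was with median of ratios (1.15) and TMM (1.09). Irf3 fell by 0.86, near the median of all genes, and was not called with these scalings (-0.04 and -0.10). Irf7 rose further from 8 h to 12 h, by 0.93 ± 0.09 in wt cells, at 3516 and 3739 CPM. Among receptors and kinases Jak2 rose by 4.26 ± 0.17 and Ifngr1, a chain of the receptor for interferon gamma, fell by 3.39, and by 2.56 and 2.62 with the other scalings. The feedback inhibitors Socs1 and Socs3 rose by 7.03 ± 0.11 and 6.31 ± 0.10. None of the 23 was called between genotypes at any time point by limma. At an unadjusted p under 0.05, 0 were higher and 1 lower in wt controls, against 1.09% and 2.26% of all genes, 4 and 3 after 8 h of LPS, against 5.77% and 15.2%, and 3 and 1 after 12 h, against 2.08% and 5.47%. Tlr4, the LPS receptor gene, was at 20.2 and 21.2 CPM in wt and 33.5 and 48.2 CPM in Treml4-/- cells at M1-8 h, a difference of -0.93 ± 0.18 (adjusted p = 0.104), with no overlap between the genotypes. This difference was -0.84 with median of ratios and -0.86 with TMM (adjusted p = 0.111 and 0.12). The paper, which tested with DESeq2, reports Tlr4 as lower in wt M1 cells.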

How the data were processed

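RNA of 12 BMDM libraries, 2 biological replicates in each of 6 conditions, was measured after poly(A) selection with stranded paired-end sequencing. The authors aligned reads with STAR and counted them with Subread. The build, per the submitters' processing notes, was mm10. The annotation and the use of strand in counting are not given in the sources used here. The deposited values are log2 CPM with a prior count of 0.25 reads, while CPM had been assumed, so CPM were first computed back, with whole reads (within 0.01) for 100% of values.

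Log2(CPM + 1) was tested in R 4.3.3 by fitting 1 mean per condition to 12086 genes and all 12 libraries (limma 3.58.1, variance moderated with a trend). The test was also run on simulated counts with known changes and the same relative spread between replicates for every gene. That setting is simpler than these data, so the run does not show how the test performs on them. No 2 replicates were the same library, since their reads differed by more than counting noise (chi-square over degrees of freedom 13.5 to 62.3). At this depth 1 read was worth 0.01709 to 0.02083 CPM.

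The members, roles, pathway and marker lists were chosen with earlier results of these data known. Values in every library were given for the 2 members of each role group with the largest log2 fold change at 8 h in wt cells and the 5 members with the lowest p for genotype over 3 time points, and other genes named with values were chosen after those were seen. Positions and exon lengths came from GENCODE M21 and promoters from RefSeq, both on GRCm38. Figures used matplotlib 3.10.9. The values of 1 gene of the pathway list are not reported here.

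Alternatives were a pseudocount of 0.1, no filter, a filter of 5 CPM, median of ratios and TMM scaling, replicate blocks, only the libraries of a comparison, the deposited log2 values used directly, no minimum fold change, leaving out each library and, added once the data had been seen, voom run with the recovered reads and crossed blocks.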

Additional observations from a re-analysis of the deposited data

How the results depend on the processing

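Of 307 counts of called members recomputed under an alternative, 301 stayed within 1.5 times the reported count. In Treml4-/- cells, 27 members rather than 13 were called from M1-8 h to M1-12 h with no minimum fold change, and 1 rather than 0, Siglec1, for genotype over 3 time points. The shares of all genes with no minimum fold change are not given here. From M1-8 h to M1-12 h in Treml4-/- cells, 6516 of all 12086 genes and 32 of the 46 members had an unadjusted limma p under 0.05. Leaving out each library in turn gave counts of 46 to 46 for LPS at 8 h and 12 h in both genotypes, 15 to 20 from 8 h to 12 h in wt and 11 to 15 in Treml4-/- cells, and for genotype 0 to 1 for M0 (the 1 without wt M0 replicate 1), 0 to 6 for M1-8 h (the 6 without Treml4-/- M1-8 h replicate 1), 0 to 0 for M1-12 h and 0 to 2 over the 3 time points. The interactions stayed at 0. The replicate numbers were not found to pair the libraries, since the replicate differences of wt and Treml4-/- cells correlated at -0.26 in controls, 0.30 after 8 h of LPS and 0.06 after 12 h. Between time points they correlated at 0.06 to 0.41 within wt cells and at -0.27 to 0.46 within Treml4-/- cells. With the number as a replicate block, 19 and 13 members were called from 8 h to 12 h, as without it, and 0 between genotypes. A replicate block within each time point, crossed at M0 and chosen after seeing these correlations, called 4 members lower in wt cells at M1-8 h (Ddx60, Herc6, Mx1 and Mx2). The cause was not tested. For the members called with LPS or between 8 h and 12 h and those named with a value between genotypes, 5664 values were recomputed, of which 35 lost a call, 12 gained one and 1 turned sign, that of Samd9l for genotype at M1-8 h, which ranged from -1.36 to 0.37 as the libraries were left out in turn (0.37 without Treml4-/- M1-8 h replicate 2). The planned edgeR and DESeq2 fits were not run, and the recovered reads were tested with voom in their place. With 2 replicates per condition, the tests rest on a spread shared across conditions and genes.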
